A study of Mus musculus with 50 samples.

Results

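Nodes draining the duodenum were compared with nodes draining the jejunum in mice raised without dietary vitamin A. The comparison held the 5 duodenal and the 5 jejunal libraries whose labels give the vitamin A deficient diet, 10 of the 50 libraries of the series. Digestive enzyme transcripts of the pancreas, which lies against the duodenum, were set aside as carry-over from that organ.

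The series measured poly(A) RNA of single lymph node sites in C57B6 mice at postnatal day 56, with 5 libraries for each of 5 nodes on 2 diets. Deficient mice were offspring of C57BL/6J dams that had been placed on a diet lacking vitamin A 3 weeks before they were bred. Sufficient mice were offspring of dams placed on a control diet with vitamin A at 20 IU/g, also 3 weeks before breeding. The age of the dams is given as 7 to 8 weeks for both diets. All 10 deficient libraries used here were female. On the sufficient diet libraries 1 and 2 of every node were female and 3, 4 and 5 were male. No label ties a node to a mouse or a litter, and the p-values therefore cover only the spread among libraries, part of which may be technical.

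Each segment of the intestine drains through its own lymph node, which receives lymph with antigen and with dendritic cells that leave the gut wall. Lymph passes through sinuses lined by lymphatic endothelial cells, whose neighbouring macrophages take up particles and dying cells. Retinoic acid, made from vitamin A by retinal dehydrogenases, is made by gut dendritic cells and stromal cells in these nodes and steers gut homing of lymphocytes.

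Estimated counts per library totalled 7663869 to 8866840 in duodenal and 7273322 to 8799475 in jejunal nodes. The 16-gene B cell list summed to 6663 to 7666 CPM (counts relative to library size, scaled with TMM) in duodenal and 5773 to 7445 CPM in jejunal libraries, as lymph node tissue carries. The 19-gene T cell list summed to 2979 to 3682 CPM in duodenal and 3041 to 3733 CPM in jejunal libraries. No marker of the drained site was available, so the site labels were taken as given. Aldh1a2, the retinal dehydrogenase of gut dendritic cells, averaged 1.98 ± 0.726 CPM in deficient duodenal and 2.98 ± 1.17 CPM in deficient jejunal nodes, against 55.1 ± 16.9 CPM in sufficient duodenal and 49.4 ± 4.48 CPM in sufficient jejunal nodes (SD, n = 5 each). The predicted gene Gm19220 took 1.7% of counts in duodenal library 3 and 1.53% in jejunal library 3, against 6.05% to 9.83% in the other 8 libraries, so that 1 such library fell on each side.

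The pancreas list made up 0.0109%, 4.54%, 2.85%, 33.9% and 0.14% of the estimated counts of duodenal libraries 1 to 5, and 0.00417% to 0.0213% of those of the jejunal libraries. Prss2, a trypsinogen, had 3.49, 1903, 1014, 22451 and 50.1 CPM in the duodenal libraries, against 8.93, 0.87, 1.43, 5.41 and 1.25 CPM in the jejunal libraries. Duodenal library 1 thus lay within the jejunal range, and duodenal library 4 stood far above the other 4. Adipocyte transcripts ran the other way. Their 17-gene list summed to 701, 958, 965, 1843 and 3455 CPM in the duodenal libraries, against 4843, 2429, 4303, 3271 and 3272 CPM in the jejunal libraries, with overlap through duodenal library 5. The part of adipose tissue in the results below was not tested. For pancreas, each list that is led with is also given without the libraries over 1% pancreas, which left 2 duodenal libraries, and with a term for the log2 pancreas share.

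**Figure D1:**
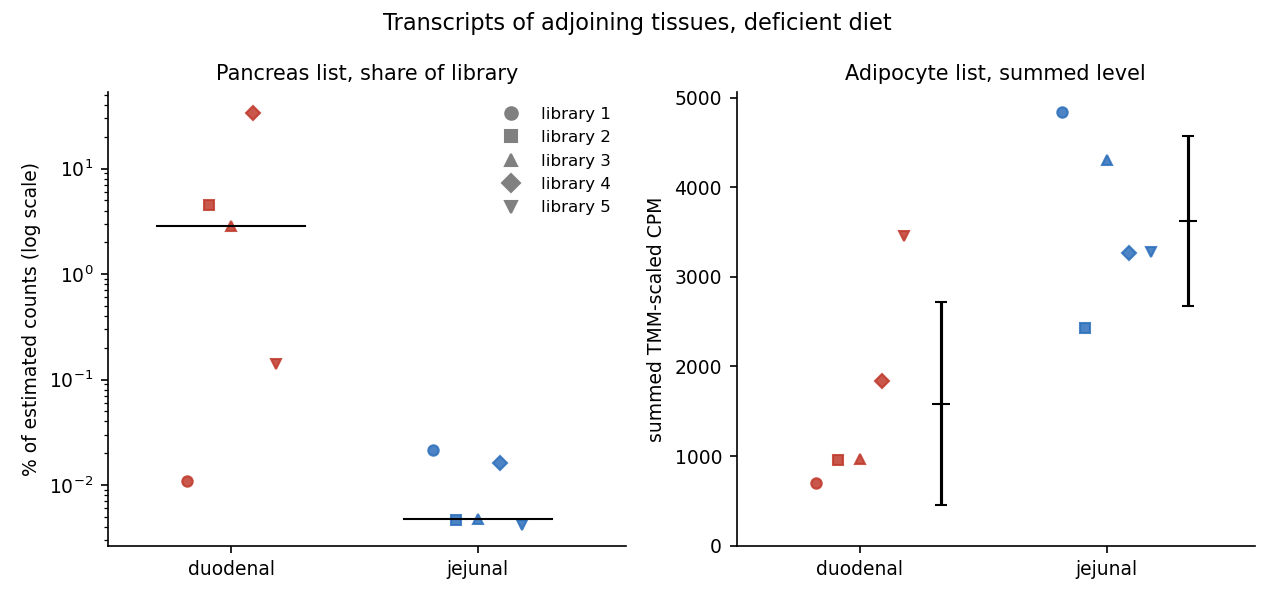
Share of estimated counts in the pancreas list (left, log scale, line at the median) and summed CPM of the adipocyte list (right, bar at mean ± SD) in the 5 duodenal and 5 jejunal libraries of the deficient diet, with 1 symbol per library number. Pancreas transcripts reached 33.9% in duodenal library 4 but were at 0.0109% in duodenal library 1, and adipocyte transcripts were lowest in duodenal library 1 at 701 CPM.

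Between the nodes, 189 of 18077 genes passed an adjusted p of 0.05 (1.05%), by edgeR's quasi-likelihood test with Benjamini-Hochberg adjustment over all genes. Before adjustment 9.42% had a p under 0.05. Of the 43 pancreas genes tested, 42 were higher in duodenal nodes, and they are left out from here on. Outside that list 147 genes passed (0.815%), of which 61 were higher (0.338%) and 86 were lower (0.477%) in duodenal nodes. Adjusted p-values below come from this test, and values after ± are standard errors of a log2 fold change (duodenal minus jejunal) unless SD is named.

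To see which of these genes travelled with pancreatic tissue, a measure was taken from libraries outside the comparison. A gene was said to follow carry-over when it was at least 2-fold higher in the sufficient duodenal library richest in pancreas transcripts (37.3% of counts) than in the median of the other 4. This held for 947 genes (5.24%), among them all 43 tested pancreas genes. It also held for 11 of the 17 adipocyte genes, so it does not single out pancreas. Of the 61 higher genes 32 followed carry-over, among them all 12 that the naming rule took as the largest increases. The other 29 (0.169% of such genes) and 82 of the 86 lower genes (0.479%) did not. Dmbt1, a secreted scavenger protein of epithelia, shows the first kind, with 1.35, 372, 228, 2206 and 5.63 CPM in duodenal nodes against 0.476 to 2.71 CPM in jejunal nodes. The metallothionein Mt2 had 130 CPM in duodenal library 4 against 8.57 to 15.7 CPM in the other 4 duodenal and 5 to 9.53 CPM in the jejunal libraries. Its log2 fold change of 2.40 ± 0.47 (adjusted p = 0.00206) became 0.79 without that library (adjusted p = 0.345). Metallothionein Mt1 was raised in the same library, at 257 CPM. The regenerating-islet gene Reg2 was high in duodenal library 3 alone, at 72.9 CPM against 1.13 to 3.2 CPM in the other 4, and its log2 fold change fell to 1.17 without it (adjusted p = 0.468).

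**Figure D2:**
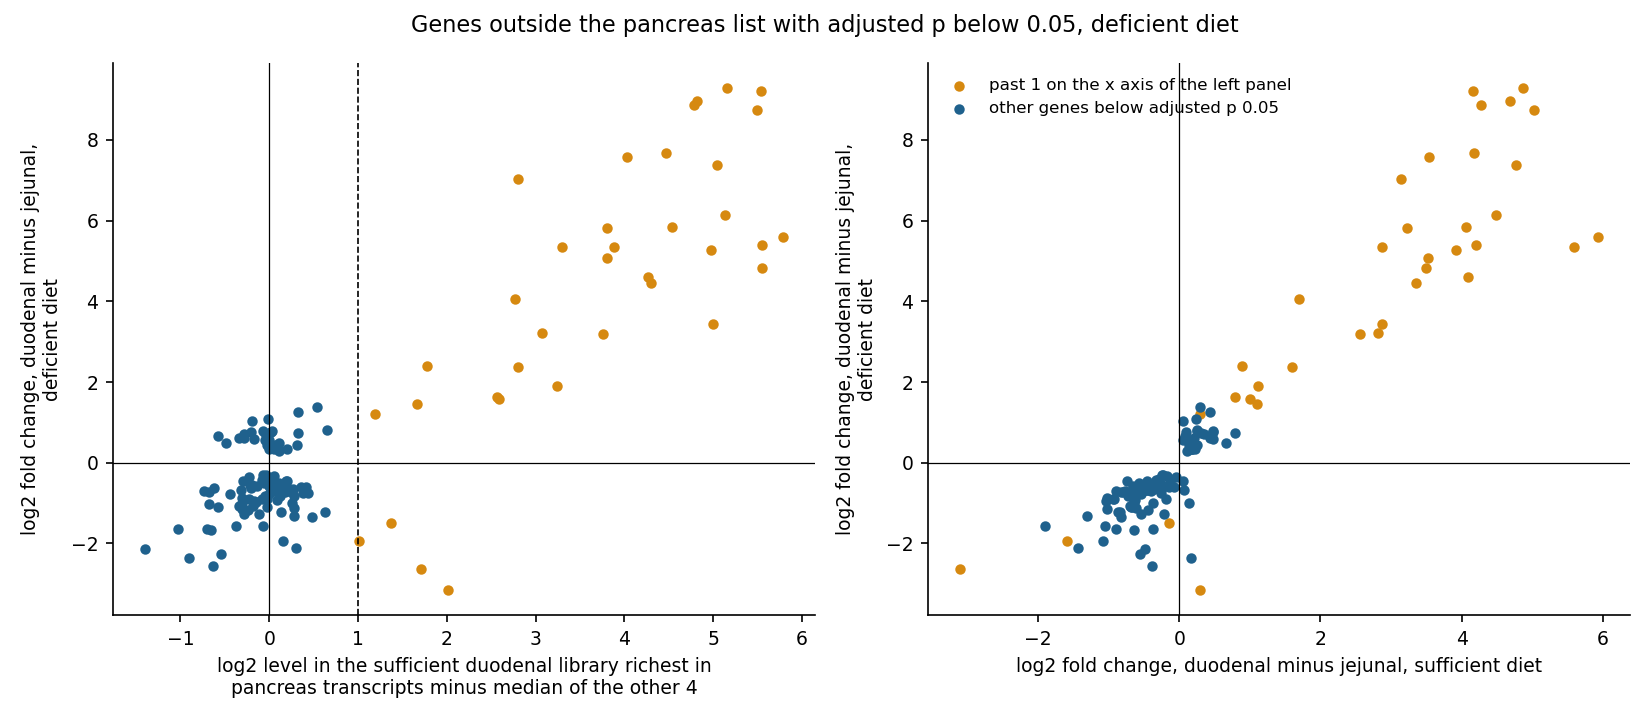
Each point is 1 of the 147 genes outside the pancreas list with an adjusted p below 0.05, with its log2 fold change between deficient duodenal and jejunal nodes on the y axis, against its excess in the pancreas-rich sufficient duodenal library (left) and its log2 fold change on the sufficient diet (right). The 32 higher genes past the dashed line at 1 include every point above Ccl17, which is at 1.37 on the y axis, while 82 of the 86 lower genes lie left of the line.

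Lymphatic endothelial genes were lower in duodenal nodes. Of 20 tested members of the list 7 fell and none rose, while 0.477% of genes outside the pancreas list fell. The median log2 fold change was -0.58, beside 0.00919 over all 18077 genes. The 7 were Flt4, Lyve1, Stab2, Prox1, Marco, Cd209b and Cldn11. The whole list summed to 2617 to 3326 CPM in duodenal and 3002 to 4462 CPM in jejunal nodes, with overlap. In bulk RNA fewer cells of a type and less RNA per cell cannot be told apart, here and for each cell type named below.

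Flt4, the receptor for the lymphatic growth factors VEGF-C and VEGF-D, had 38.3, 42.2, 38.4, 25.1 and 37.3 CPM in duodenal nodes against 67.1, 85.5, 67.6, 57.5 and 59.6 CPM in jejunal nodes. Every duodenal library lay below every jejunal one (log2 fold change -0.89 ± 0.15, adjusted p = 7.13e-04). Lyve1, the hyaluronan receptor of lymphatic vessels, had 118, 127, 121, 113 and 142 CPM in duodenal nodes against 183, 229, 263, 217 and 207 CPM in jejunal nodes. The groups again did not overlap (-0.82 ± 0.14, adjusted p = 7.55e-04). Prox1, the transcription factor that specifies lymphatic identity, had 14.9, 20, 18.7, 12.2 and 21.2 CPM in duodenal nodes against 25, 32.3, 26.6, 24.9 and 26.8 CPM in jejunal nodes (-0.63 ± 0.16, adjusted p = 0.0362). Prox1 too was lower in all 5 duodenal libraries than in any jejunal one.

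Scavenger and lectin receptors of sinus endothelium followed. Stab2, a scavenger receptor for hyaluronan, was at 90 to 135 CPM in duodenal and 144 to 222 CPM in jejunal nodes (-0.70 ± 0.15, adjusted p = 0.00739). Marco, a scavenger receptor of medullary sinus endothelium and macrophages, was at 538 to 750 CPM in duodenal and 814 to 1469 CPM in jejunal nodes (-0.78 ± 0.18, adjusted p = 0.0151). Cd209b, a C-type lectin that binds microbial glycans, had 198, 161, 163, 175 and 205 CPM in duodenal nodes against 290, 283, 455, 297 and 367 CPM in jejunal nodes (-0.91 ± 0.18, adjusted p = 0.00207). The claudin Cldn11 was at 11.3 to 15.4 CPM in duodenal and 15.9 to 26 CPM in jejunal nodes (-0.59 ± 0.14, adjusted p = 0.0218). For all 4 genes the 2 groups did not overlap.

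Other lymphatic members did not pass. Madcam1, the mucosal addressin, was at 21.2 to 51.6 CPM in duodenal and 15.1 to 40.2 CPM in jejunal nodes (0.33 ± 0.21, adjusted p = 0.684). Ccl21a, the chemokine that draws Ccr7-bearing cells, was at 1240 to 1768 CPM in duodenal and 1061 to 1568 CPM in jejunal nodes (0.17 ± 0.13, adjusted p = 0.787). Reln, a secreted glycoprotein of collecting lymphatics, was at 7.16 to 28.6 CPM in duodenal and 12.8 to 33.6 CPM in jejunal nodes (-0.46 ± 0.34, adjusted p = 0.755). The groups of all 3 overlapped.

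Several further genes of vessels, stroma and guidance were lower, of which Sema3d, Unc5b, Mmrn2 and Cd300lg were picked after their values were seen. Ednrb, the endothelin B receptor, was the gene with the smallest p of the comparison. It had 6.76, 7.83, 7.05, 7.91 and 10.7 CPM in duodenal nodes against 26.6, 32.9, 43.3, 27.3 and 23.6 CPM in jejunal nodes, a 3.82-fold lower level (-1.93 ± 0.24, adjusted p = 5.51e-06). The highest duodenal library stood well under the lowest jejunal one. Ednrb was the 1 gene of 23 to pass in the list of adventitial and capsular fibroblasts (median -0.11) and the 1 of 11 in the list of endothelin, nerve and glia genes (median 0.08). Sema3d, a secreted semaphorin, had 12.2, 13.8, 14.5, 9.98 and 16.3 CPM in duodenal nodes against 30.3, 43.4, 32.9, 23.4 and 33.3 CPM in jejunal nodes (-1.28 ± 0.20, adjusted p = 5.32e-04). Unc5b, a netrin receptor of endothelial cells, had 13.9, 16.4, 11.6, 8.1 and 12.1 CPM in duodenal nodes against 26.2, 32.9, 26.3, 32.3 and 28.4 CPM in jejunal nodes (-1.22 ± 0.20, adjusted p = 5.32e-04). For both the groups were separate. Kdr, the main VEGF-A receptor, was at 52.4 to 94.3 CPM in duodenal and 105 to 150 CPM in jejunal nodes (-0.70 ± 0.13, adjusted p = 0.00118), and was the 1 gene of 18 in the blood and high endothelial list to pass. Mmrn2, an endothelial matrix protein, fell less (-0.44 ± 0.11, adjusted p = 0.0215), and so did Cd300lg, a glycoprotein of capillary and venular endothelium (-0.56 ± 0.14, adjusted p = 0.039).

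**Figure D3:**
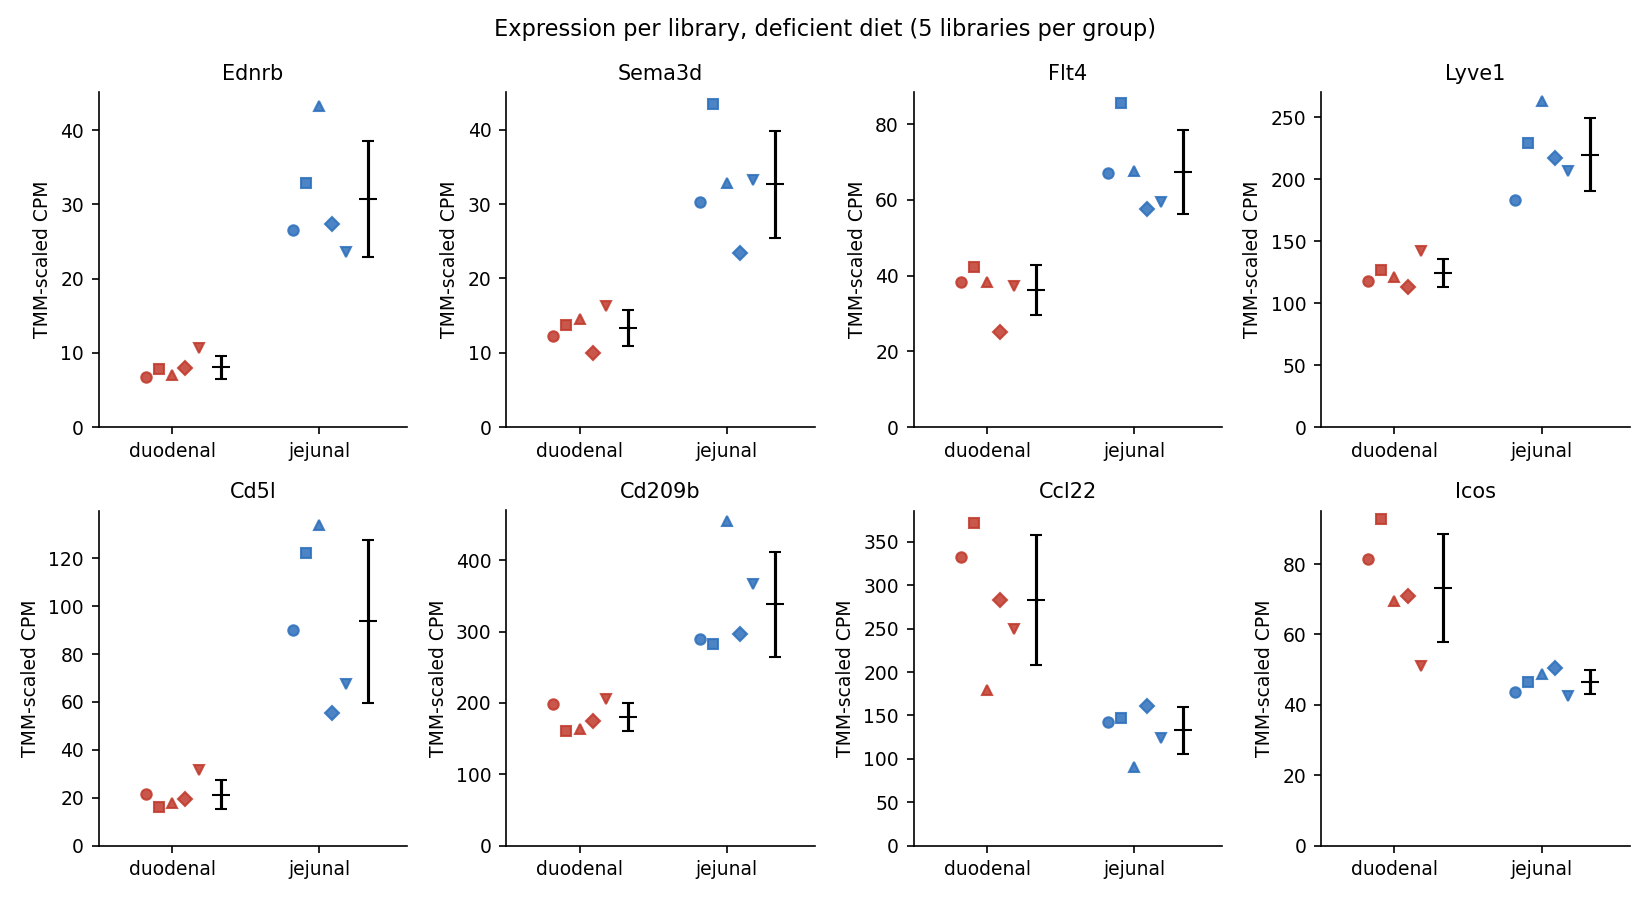
CPM of 8 genes in each deficient library, with duodenal nodes on the left and jejunal nodes on the right of each panel, 1 symbol per library number and mean ± SD (n = 5) beside the points. The first 6 genes are lower in every duodenal library than in any jejunal library, and Ccl22 and Icos are higher in every one.

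Macrophage genes of the sinuses and medulla were lower as well. Of 23 tested members 4 fell and none rose, while 0.477% of genes outside the pancreas list fell. The median log2 fold change was -0.35. The 4 were Cd5l, Adgre1, Marco and Lyve1, the last 2 shared with the lymphatic list. The whole list summed to 2064 to 2510 CPM in duodenal and 2636 to 4062 CPM in jejunal nodes, without overlap. Of this sum Marco, shared with the lymphatic list, averaged 668 CPM in duodenal and 1149 CPM in jejunal nodes. Cd5l, a secreted apoptosis inhibitor of tissue macrophages, had 21.6, 16.2, 17.8, 19.4 and 31.4 CPM in duodenal nodes against 89.9, 122, 134, 55.2 and 67.4 CPM in jejunal nodes. This 4.39-fold lower level was the largest change in the list (-2.13 ± 0.33, adjusted p = 3.36e-04). Adgre1, which encodes the macrophage antigen F4/80, was at 26.4 to 37 CPM in duodenal and 39.2 to 77.1 CPM in jejunal nodes (-0.89 ± 0.18, adjusted p = 0.004).

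Macrophage genes outside the list, picked after their values were seen, included Csf1r, the receptor that macrophages need to survive (-0.51 ± 0.11, adjusted p = 0.00908), and Slc11a1, a metal transporter of the phagosome (-0.79 ± 0.14, adjusted p = 8.56e-04). Slc11a1 had 46.8, 33.7, 39.1, 37.5 and 38.7 CPM in duodenal nodes against 61.7, 82.3, 62.5, 64.9 and 66.4 CPM in jejunal nodes, with no overlap. Mpeg1, a pore-forming protein of phagocytes, fell by 0.36 on the log2 scale (adjusted p = 0.00751) and the lysosomal protease Ctsb by 0.40 (adjusted p = 0.01). Hexokinase Hk3, expressed in myeloid cells, fell by 0.72 (adjusted p = 0.0296), and the lipoprotein receptor Scarb1 by 0.45 (adjusted p = 0.0339).

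Other defining macrophage genes did not pass. The sialoadhesin gene Siglec1, a marker of subcapsular sinus macrophages, was at 113 to 207 CPM in duodenal and 236 to 387 CPM in jejunal nodes (-0.64 ± 0.23, adjusted p = 0.228). The mannose receptor Mrc1 was at 41.6 to 52.4 CPM in duodenal and 57 to 85 CPM in jejunal nodes (-0.56 ± 0.17, adjusted p = 0.102). The complement gene C1qc had -0.49 ± 0.15 (adjusted p = 0.105) and the efferocytosis receptor Mertk -0.35 ± 0.12 (adjusted p = 0.175).

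**Figure D4:**
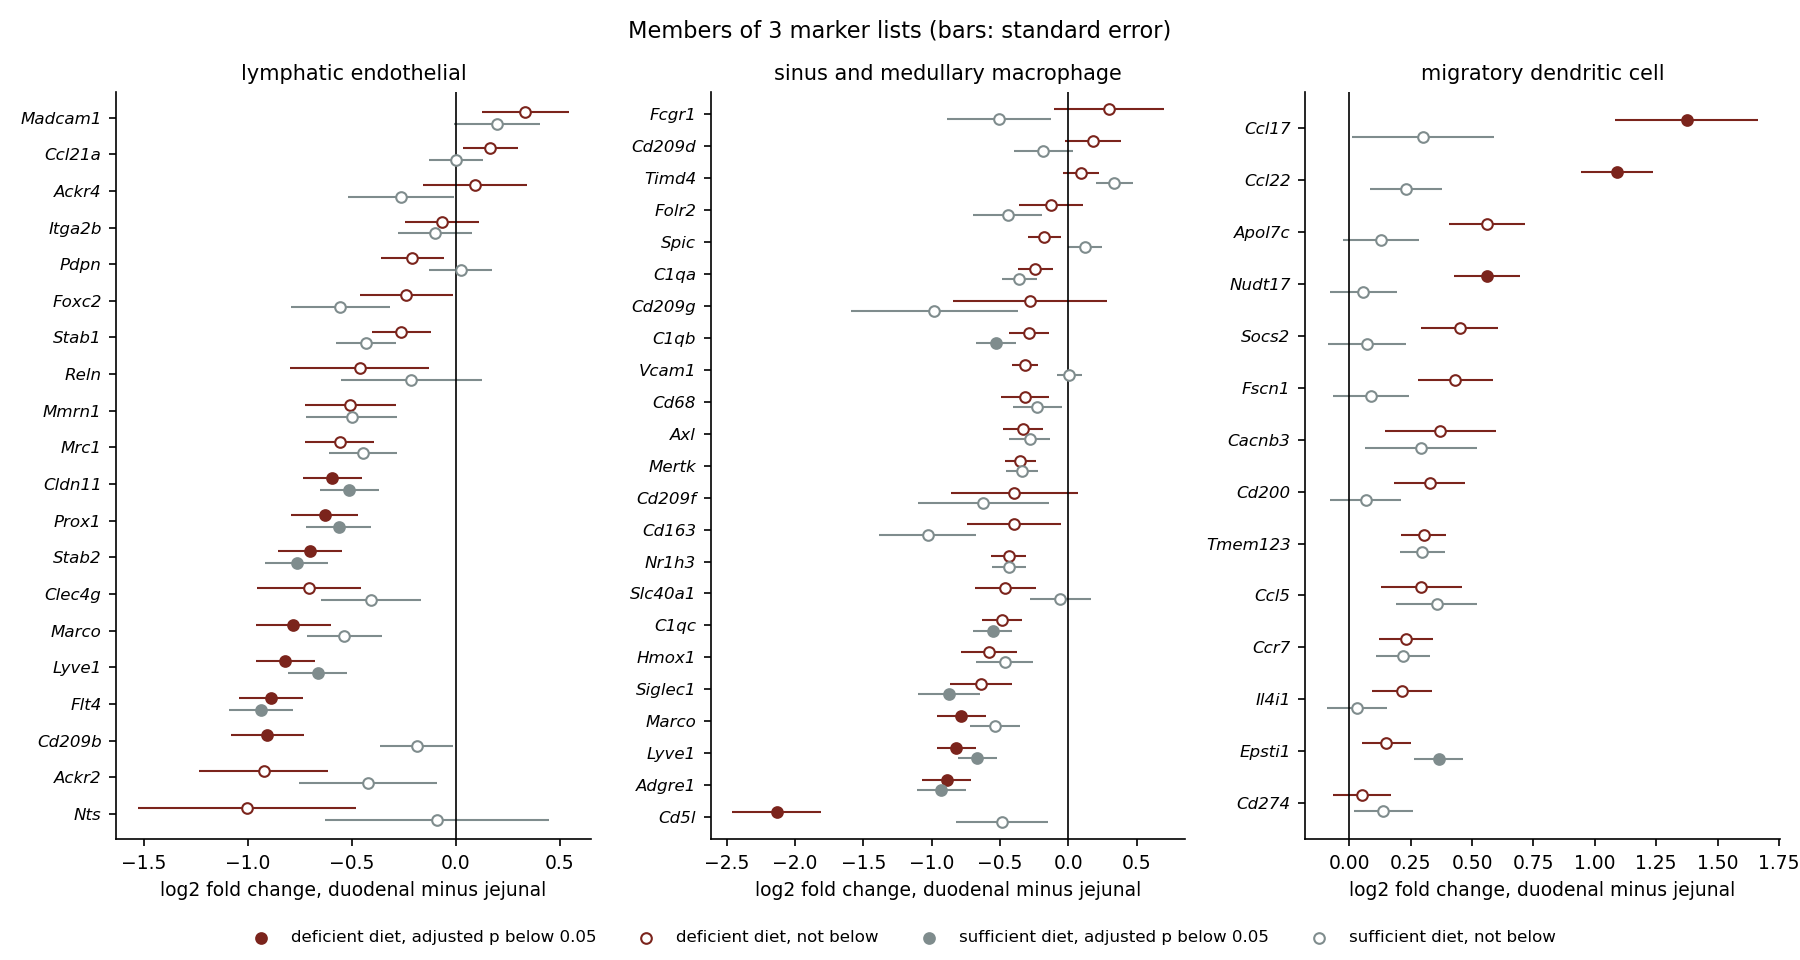
Log2 fold change (duodenal minus jejunal) ± standard error of every tested member of the lymphatic endothelial (20), sinus and medullary macrophage (23) and migratory dendritic cell (14) lists, with the deficient diet in dark red above the sufficient diet in grey. Filled points have an adjusted p below 0.05: 7, 4 and 3 members on the deficient diet and 5, 5 and 1 on the sufficient diet.

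Fewer of these decreases passed when pancreas-rich libraries were left out, which also left fewer libraries to compare. Without the libraries over 1% pancreas 0 of 20 lymphatic members (median -0.50) and 0 of 23 macrophage members (median -0.28) passed. With the term for the log2 pancreas share 0 of 20 lymphatic members (median -0.50) and 1 of 23 macrophage members (median -0.47) passed. The fit of the 10 compared libraries alone left 2 of 19 lymphatic and 2 of 23 macrophage members. Without the libraries low in Gm19220 the counts were 2 of 20 and 2 of 23. The lymphatic count was 4 without duodenal library 4 and also 4 without jejunal library 3. Without the libraries over 10% pancreas, which removed duodenal library 4 here, Ednrb had -1.94 (adjusted p = 7.49e-05) and Cd5l -2.12 (adjusted p = 0.00134). Without those over 1% Ednrb had -1.83 (adjusted p = 0.0693) and Cd5l -1.83 (adjusted p = 0.294). The pancreas term left Ednrb at -1.86 (adjusted p = 0.00132) and Cd5l at -2.02 (adjusted p = 0.024).

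Chemokine and dendritic cell genes were higher in duodenal nodes. Of 14 genes in the list of migratory dendritic cells, which carry antigen from the gut wall, 3 rose (Ccl22, Ccl17 and Nudt17) and none fell. Outside the pancreas list 0.338% of genes rose. The median log2 fold change of the 14 was 0.35, beside 0.00919 over all 18077 genes. All 14 had a positive fold change. The list of alternatively activated macrophages shares Ccl22 and Ccl17, which were the 2 of its 11 tested genes to pass (median 0.13). Ccl22 and Ccl17 encode the ligands of the receptor Ccr4 on regulatory and helper T cells. Their genes neighbour each other on chromosome 8, with 1 other gene, Cx3cl1, between them. Their promoter windows are shown because both genes rose, and those of Ednrb and Cd5l because Ednrb had the smallest p of all and Cd5l the largest change in the macrophage list.

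The windows run from 250 bases before to 50 after the gene's start in RefSeq (GRCm38.p6), 5′ to 3′ on the gene's strand. All 4 genes matched an entry. Capitals mark matches on either strand to the retinoic acid receptor half-site AGGTCA or to the consensus of the inflammatory factor NF-κB. They are chr8:94745434-94745733 (plus strand) for Ccl22, chr8:94810203-94810502 (plus) for Ccl17, chr14:103843652-103843951 (minus) for Ednrb and chr3:87357631-87357930 (plus) for Cd5l.
Ccl22: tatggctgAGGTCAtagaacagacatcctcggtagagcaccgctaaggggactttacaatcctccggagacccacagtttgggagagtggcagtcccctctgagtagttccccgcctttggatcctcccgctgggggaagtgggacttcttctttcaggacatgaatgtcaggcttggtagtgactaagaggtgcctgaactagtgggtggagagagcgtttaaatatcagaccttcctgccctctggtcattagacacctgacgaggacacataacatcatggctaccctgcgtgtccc
Ccl17: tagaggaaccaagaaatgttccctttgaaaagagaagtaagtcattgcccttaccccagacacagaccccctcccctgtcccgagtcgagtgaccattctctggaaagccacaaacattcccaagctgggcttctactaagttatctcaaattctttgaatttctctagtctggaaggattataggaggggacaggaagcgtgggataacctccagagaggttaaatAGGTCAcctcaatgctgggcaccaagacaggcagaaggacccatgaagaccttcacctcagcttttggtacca
Ednrb: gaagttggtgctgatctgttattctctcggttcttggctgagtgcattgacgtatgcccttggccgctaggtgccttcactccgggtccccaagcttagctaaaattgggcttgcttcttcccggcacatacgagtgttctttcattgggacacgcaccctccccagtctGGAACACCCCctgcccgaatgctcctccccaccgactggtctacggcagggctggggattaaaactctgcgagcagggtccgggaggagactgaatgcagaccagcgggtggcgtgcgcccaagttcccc
Cd5l: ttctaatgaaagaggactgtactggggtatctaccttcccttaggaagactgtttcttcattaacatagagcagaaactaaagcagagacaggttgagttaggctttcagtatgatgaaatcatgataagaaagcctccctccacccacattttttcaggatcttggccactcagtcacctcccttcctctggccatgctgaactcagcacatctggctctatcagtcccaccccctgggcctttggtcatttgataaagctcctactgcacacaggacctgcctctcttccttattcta
Ccl22 and Ccl17 each held 1 AGGTCA and no NF-κB consensus, Ednrb held 1 NF-κB consensus and no AGGTCA, and Cd5l held neither. Over all 32851 promoter windows of this length 16.3% held AGGTCA and 8.46% the NF-κB consensus. A direct repeat of the AGGTCA half-site with 5 bases between its copies was in none of the 4 windows and in 3 of all windows. A match describes the letters only and is not a binding site.

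Ccl22 had 333, 372, 179, 283 and 249 CPM in duodenal nodes against 142, 147, 90.7, 161 and 124 CPM in jejunal nodes. The lowest duodenal library was above the highest jejunal one, and the level was 2.13-fold higher (1.09 ± 0.15, adjusted p = 2.57e-05). Ccl17 was expressed far below it, with 10.9, 9.68, 3.34, 8.1 and 6.43 CPM in duodenal nodes against 4.35, 3.36, 1.91, 1.89 and 3.25 CPM in jejunal nodes (1.37 ± 0.29, adjusted p = 0.00571). Here duodenal library 3 fell within the jejunal range. In both chemokines library 3 was the lowest duodenal one.

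The Nudix hydrolase gene Nudt17 was at 30.9 to 48.4 CPM in duodenal and 22.6 to 33.2 CPM in jejunal nodes (0.56 ± 0.13, adjusted p = 0.0218). Other members did not pass. Apol7c, an apolipoprotein L gene of dendritic cells, was at 429 to 810 CPM in duodenal and 313 to 555 CPM in jejunal nodes (0.56 ± 0.15, adjusted p = 0.0651). Fscn1, the actin bundler of mature dendritic cells, had 0.43 ± 0.15 (adjusted p = 0.238) and Ccr7, the receptor that guides them into the node, 0.23 ± 0.11 (adjusted p = 0.505). Of the 21 genes in the list of conventional dendritic cells none passed. Clec9a, which marks cross-presenting cells, was at 23.4 to 39.4 CPM in duodenal and 24.9 to 48.5 CPM in jejunal nodes (-0.43 ± 0.17, adjusted p = 0.313).

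Ccl22 was the 1 gene that passed after removal of every library over 1% pancreas (1.12, adjusted p = 4.53e-04). Its adjusted p was 0.0777 when the fit held the 10 compared libraries alone, with the log2 fold change still at 1.09. The migratory dendritic cell list had 1 of 14 members past the threshold without the libraries over 1% pancreas (median 0.36) and 1 of 14 with the pancreas term (median 0.31). With the 10 compared libraries alone it had 0 of 14 (median 0.35).

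Icos, Tnfrsf4 and S100a4 rose too. Icos, the costimulator of helper and regulatory T cells, had 81.5, 92.7, 69.6, 71 and 51.1 CPM in duodenal nodes against 43.6, 46.6, 48.9, 50.6 and 42.4 CPM in jejunal nodes (0.66 ± 0.12, adjusted p = 8.56e-04). The groups touched without overlapping, since duodenal library 5 was just above jejunal library 4. Icos was the 1 gene of 14 in the germinal centre B cell list to pass (median -0.17). Tnfrsf4, which encodes OX40, had 52.2, 52, 40.8, 61.6 and 38.7 CPM in duodenal nodes against 33.7, 31.7, 36.4, 35.6 and 26.9 CPM in jejunal nodes (0.57 ± 0.12, adjusted p = 0.006). S100a4, a calcium-binding protein of memory T cells and myeloid cells, had 163, 155, 98.3, 174 and 112 CPM in duodenal nodes against 93.1, 79.7, 76.9, 88.6 and 67.2 CPM in jejunal nodes (0.79 ± 0.13, adjusted p = 5.32e-04). Neither gene's groups overlapped. S100a4 was outside the naming rule.

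In the regulatory T cell list 2 genes rose, Tnfrsf4 and the actin-capping gene Capg (0.30 ± 0.07, adjusted p = 0.00908), with a median of 0.29. That was 2 of 14, beside 0.338% of genes outside the pancreas list. This count was 0 of 14 without duodenal library 4, without the libraries over 10% pancreas and with the pancreas term, 0 of 15 without those over 1%, and 0 of 13 with the 10 compared libraries alone. It was 4 without duodenal library 3 or 5 and 1 without jejunal library 3. The lineage factor Foxp3 was at 41.4 to 57.8 CPM in duodenal and 25.1 to 43.7 CPM in jejunal nodes, with overlap (0.31 ± 0.17, adjusted p = 0.625). The interleukin 2 receptor Il2ra had 0.29 ± 0.12 (adjusted p = 0.349). The checkpoint receptor Ctla4 (0.65 ± 0.17, adjusted p = 0.0554) and Tnfrsf18, which encodes GITR (0.36 ± 0.10, adjusted p = 0.0567), lay just outside the threshold. The folate-receptor family gene Izumo1r, carried by regulatory and follicular helper T cells, rose by 0.49 ± 0.12 (adjusted p = 0.0268). Izumo1r was outside the naming rule. None of 19 T cell genes passed, and their median was 0.07.

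Other genes that rose and did not follow carry-over came from several cell types. Of those given here Mreg, Lsp1, Anxa3, Cd40 and Bcl2a1d were outside the naming rule. The trafficking regulator Mreg (0.61 ± 0.14, adjusted p = 0.0122) and the actin-binding leukocyte protein Lsp1 (0.34 ± 0.07, adjusted p = 0.00235) rose, as did annexin Anxa3 (0.60 ± 0.13, adjusted p = 0.00502). Rgs5, a G-protein regulator of pericytes, had 39.3, 44.3, 32.8, 35.6 and 30.7 CPM in duodenal nodes against 23.4, 19.1, 25.8, 22.2 and 18.6 CPM in jejunal nodes, without overlap (0.74 ± 0.14, adjusted p = 0.00131). It was the 1 gene of 15 in the pericyte and smooth muscle list to pass. The median of that list was 0.1, and 7 of the 15 had a negative fold change. The costimulator Cd40 rose by 0.33 ± 0.09 (adjusted p = 0.039) and the B cell scaffold Bank1 by 0.35 ± 0.09 (adjusted p = 0.0301), the 1 of 16 B cell genes to pass. Bcl2a1d rose by 0.71 ± 0.18 (adjusted p = 0.0383), but reads of this survival gene cannot be separated with certainty from its near-identical copies.

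Some positional genes were lower. Of 25 tested Hox genes, which record position along the body axis, 3 fell and none rose, with a median of -0.41. Outside the pancreas list 0.477% of genes fell. Hoxc8 had 2.82, 2.52, 1.61, 1.7 and 4.02 CPM in duodenal nodes against 6.23, 6.59, 9.53, 4.74 and 5 CPM in jejunal nodes (-1.32 ± 0.32, adjusted p = 0.0242). Hoxd10 was at 0.942 to 2.03 CPM in duodenal and 2.24 to 4.52 CPM in jejunal nodes (-1.12 ± 0.30, adjusted p = 0.0478), and Hoxd9 at 4.24 to 10.3 CPM in duodenal and 10.8 to 15 CPM in jejunal nodes (-0.70 ± 0.18, adjusted p = 0.0362). The groups of all 3 were separate, though these levels are low. Their neighbour Hoxd8 did not pass (-0.88 ± 0.24, adjusted p = 0.0667), nor did Nkx2-3, the homeobox factor of gut lymphoid endothelium (-0.32 ± 0.21, adjusted p = 0.697). None of the 17 genes of other positional factors passed (median -0.32). The Hox count was 0 with limma-voom, with the pancreas term, with the 10 compared libraries alone and without the libraries over 1% pancreas or those low in Gm19220. It was also 0 without duodenal library 2, 3 or 4 or jejunal library 3, and 1 without jejunal library 1 or 2.

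The mesothelial gene Upk3b, a uroplakin, had 0, 1.72, 0.742, 1.88 and 0.689 CPM in duodenal nodes against 5.64, 5.97, 12.4, 2.57 and 2.88 CPM in jejunal nodes (-2.62 ± 0.62, adjusted p = 0.018). Msln, which encodes the mesothelial surface protein mesothelin, was at 0.124 to 5.46 CPM in duodenal and 1.25 to 7.98 CPM in jejunal nodes (-1.32 ± 0.68, adjusted p = 0.57). Upk3b was the 1 of 9 mesothelial genes to pass, and the list summed to 12.2 to 23 CPM in duodenal and 17.3 to 51.6 CPM in jejunal nodes. Upk3b itself followed carry-over.

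Large decreases also appeared in genes outside any list. The progestin receptor family gene Paqr9 had 2.03, 4.51, 1.98, 2.45 and 2.53 CPM in duodenal nodes against 14.2, 15.5, 12, 9.07 and 7.38 CPM in jejunal nodes (-2.11 ± 0.35, adjusted p = 5.60e-04). Abcd2, the peroxisomal transporter of very long fatty acids, had 6.88, 10.5, 10, 8.48 and 13.9 CPM in duodenal nodes against 28.6, 21.1, 47.5, 12.3 and 37.8 CPM in jejunal nodes, with duodenal library 5 above jejunal library 4 (-1.56 ± 0.32, adjusted p = 0.00445). The endogenous retroviral gene Erv3 (-1.65 ± 0.29, adjusted p = 7.93e-04), Syndig1l (-1.65 ± 0.36, adjusted p = 0.00716), the phospholipase gene Plch2 (-2.37 ± 0.47, adjusted p = 0.00271), the claudin Cldn15 (-1.57 ± 0.34, adjusted p = 0.00842), Xlr5c (-1.36 ± 0.24, adjusted p = 8.56e-04) and Cacng4, a calcium-channel and glutamate-receptor subunit family member (-1.50 ± 0.30, adjusted p = 0.00285), complete the 12 largest with Upk3b, Cd5l, Ednrb and Zfp618. Of these 12, Upk3b and Cacng4 followed carry-over.

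Single libraries set some of these values. The zinc finger gene Zfp618 had 31.3 CPM in jejunal library 5 against 0.947 to 2.86 CPM in the other 4 jejunal and 0.989 to 1.59 CPM in the duodenal libraries. Its log2 fold change of -2.56 ± 0.53 (adjusted p = 0.00445) became -0.63 without that library (adjusted p = 0.615). Among 85 immunoglobulin kappa V segments 1 fell, Igkv5-39. It had 482 CPM in jejunal library 1, 7.51 to 20.4 CPM in the other 4 jejunal and 6.59 to 19.5 CPM in the duodenal libraries, and its -3.16 ± 0.79 (adjusted p = 0.0317) became -0.13 without jejunal library 1 (adjusted p = 0.979). Among 90 heavy chain V segments 2 fell, with Ighv2-9 at 0.377 to 1.61 CPM in duodenal and 2.16 to 8.11 CPM in jejunal nodes (-2.27 ± 0.59, adjusted p = 0.0417). Segments of one family share sequence, so reads can be divided among them.

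No gene of vitamin A handling passed between the nodes on this diet. None of 15 retinoid metabolism genes and none of 15 receptor and response genes passed in either direction, with medians of -0.09 and -0.12. Aldh1a2 had 1.8, 2.12, 0.865, 2.83 and 2.3 CPM in duodenal nodes against 3.29, 4.23, 3.57, 2.71 and 1.13 CPM in jejunal nodes, with overlap (-0.62 ± 0.37, adjusted p = 0.664). Lrat, which esterifies retinol, was at 0.789 to 1.7 CPM in duodenal and 1.06 to 2.63 CPM in jejunal nodes (-0.41 ± 0.33, adjusted p = 0.799). Cyp26b1, which degrades retinoic acid, was below 1 CPM in all 10 libraries (-0.26 ± 0.56, adjusted p = 0.954). Such low levels limit what can be detected. The retinal reductase Dhrs3 was better covered, at 17.6 to 30.1 CPM in duodenal and 25.6 to 35.1 CPM in jejunal nodes (-0.43 ± 0.16, adjusted p = 0.288), and the retinoic acid target Hic1 had -0.49 ± 0.16 (adjusted p = 0.151). Fabp5, which carries retinoic acid and fatty acids, had 119, 124, 77.1, 121 and 84.9 CPM in duodenal nodes against 80.8, 56.8, 63.2, 82.1 and 39.7 CPM in jejunal nodes (0.70 ± 0.20, adjusted p = 0.0679).

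Mast cell genes and Igha did not pass either. The mast cell protease Mcpt4 was at 50.7 to 126 CPM in duodenal and 55 to 97.7 CPM in jejunal nodes (0.24 ± 0.37, adjusted p = 0.929), and none of 17 mast cell and basophil genes passed. The interleukin 33 receptor Il1rl1 was at 8.78 to 22 CPM in duodenal and 11.9 to 20.3 CPM in jejunal nodes (-0.04 ± 0.30, adjusted p = 0.99). Igha, the constant region of IgA, was at 1584 to 4176 CPM in duodenal and 1956 to 3937 CPM in jejunal nodes (-0.07 ± 0.41, adjusted p = 0.987). In all 3 the libraries of 1 node differed among themselves by more than the node means did.

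None of 17 adipocyte genes passed, although all 17 had a negative fold change, with a median of -1.33. Adipoq, the adipocyte hormone adiponectin, had 4.62, 11.8, 13.1, 37.9 and 76.2 CPM in duodenal nodes against 112, 40.3, 106, 44.9 and 57.9 CPM in jejunal nodes (-1.33 ± 0.64, adjusted p = 0.501). The lipid droplet gene Plin1 had -1.31 ± 0.54 (adjusted p = 0.373), the desaturase Scd1 -1.20 ± 0.45 (adjusted p = 0.281), the fatty acid carrier Fabp4 -1.37 ± 0.51 (adjusted p = 0.282) and the fatty acid receptor Cd36 -1.05 ± 0.30 (adjusted p = 0.0771). The protease gene Plat, outside the list, had -1.46 ± 0.41 (adjusted p = 0.0733). For Adipoq duodenal library 5 lay within the jejunal range, and the other 4 lay below it.

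The same contrast was then read on the sufficient diet, in 10 libraries that are not part of the comparison above. There 471 genes passed (2.61%), and outside the pancreas list 75 rose (0.416%) and 355 fell (1.97%, or 1.96% of all genes) in duodenal nodes. Of the 86 genes lower on the deficient diet 31 were also called lower on the sufficient diet, and 81 had a negative fold change. Of the 29 higher genes that did not follow carry-over 3 were also called, and all 29 had a positive fold change. Over all genes 61.1% had the same sign on both diets.

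Several lymphatic and macrophage genes fell on both diets. Flt4 had -0.89 ± 0.15 on the deficient and -0.94 ± 0.16 on the sufficient diet (adjusted p there = 9.29e-04). Lyve1 had -0.82 ± 0.14 on the deficient and -0.67 ± 0.14 on the sufficient diet (adjusted p there = 0.00902). For Stab2 it was -0.70 ± 0.15 on the deficient and -0.77 ± 0.15 on the sufficient diet (adjusted p there = 0.00505), and for Adgre1 -0.89 ± 0.18 on the deficient and -0.93 ± 0.18 on the sufficient diet (adjusted p there = 0.004). Rgs5 rose on both, by 0.74 ± 0.14 on the deficient and 0.79 ± 0.14 on the sufficient diet (adjusted p there = 0.00133). Ednrb fell on both as well, with -1.93 ± 0.24 on the deficient and -1.08 ± 0.24 on the sufficient diet (adjusted p there = 0.0109). Of the lymphatic list 5 of 20 fell on the sufficient diet (median -0.43), and of the macrophage list 5 of 23 (median -0.47). Adipocyte genes moved with them there, since 12 of 17 fell (median -2.30) and their sum was 666 to 2047 CPM in duodenal and 3739 to 8418 CPM in jejunal nodes, without overlap. Their part in these decreases was not tested.

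The difference between the diets was tested directly, but the diets also differed in sex. All deficient libraries were female, whereas the sufficient groups held both sexes. The sex term of the model was the same for every node. An effect of sex on the node difference therefore cannot be told apart from an effect of diet on it. Whether the node difference varied with sex was not tested. By edgeR's quasi-likelihood test no gene passed after adjustment, and limma-voom and DESeq2 passed none either, while 907 genes (5.02%) had an unadjusted p under 0.05. The smallest adjusted p was 0.459, for Shkbp1, a gene of endocytic receptor turnover, at 0.27 ± 0.07 on the deficient and -0.21 ± 0.07 on the sufficient diet. Ccl22 had a log2 fold change of 1.09 ± 0.15 on the deficient and 0.23 ± 0.15 on the sufficient diet, a difference of 0.86 (unadjusted p = 1.43e-04 in that model). For Cd5l the values were -2.13 ± 0.33 on the deficient and -0.49 ± 0.34 on the sufficient diet (difference -1.65, unadjusted p = 9.30e-04), and for Icos 0.66 ± 0.12 on the deficient and 0.08 ± 0.12 on the sufficient diet (difference 0.57, unadjusted p = 0.0013). Fabp5 had 0.70 ± 0.20 on the deficient and -0.49 ± 0.20 on the sufficient diet (difference 1.19, unadjusted p = 1.09e-04). Anxa2, a membrane-binding annexin, had 0.28 ± 0.12 on the deficient and -0.44 ± 0.12 on the sufficient diet (difference 0.71, unadjusted p = 1.78e-04). In this model, which has no replicate block, all of these differences fail the correction over 18077 genes.

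In the other nodes the same genes took different orders. On the deficient diet Ednrb averaged 8.05 ± 1.55 CPM in duodenal, 30.8 ± 7.79 in jejunal, 76.3 ± 13.4 in ileal, 24.5 ± 15.1 in colonic and 4.5 ± 0.938 CPM in inguinal nodes (SD, n = 5 each). Cd5l averaged 21.3 ± 5.98, 93.7 ± 33.8, 246 ± 37.5, 76.2 ± 30 and 10.9 ± 4.88 CPM in the same order of nodes. Both were highest in ileal nodes, and their jejunal and colonic ranges overlapped. Ccl22 averaged 283 ± 75.1, 133 ± 27, 65.4 ± 9.53, 49.2 ± 5.47 and 133 ± 18.7 CPM from duodenal to inguinal nodes, highest in duodenal nodes, with jejunal and inguinal nodes at the same mean. Icos averaged 73.2 ± 15.5 CPM in duodenal, 46.4 ± 3.46 in jejunal, 37.8 ± 4.53 in ileal, 49.5 ± 4.73 in colonic and 59.3 ± 5.97 CPM in inguinal nodes, and here the duodenal and inguinal ranges overlapped.

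**Figure D5:**
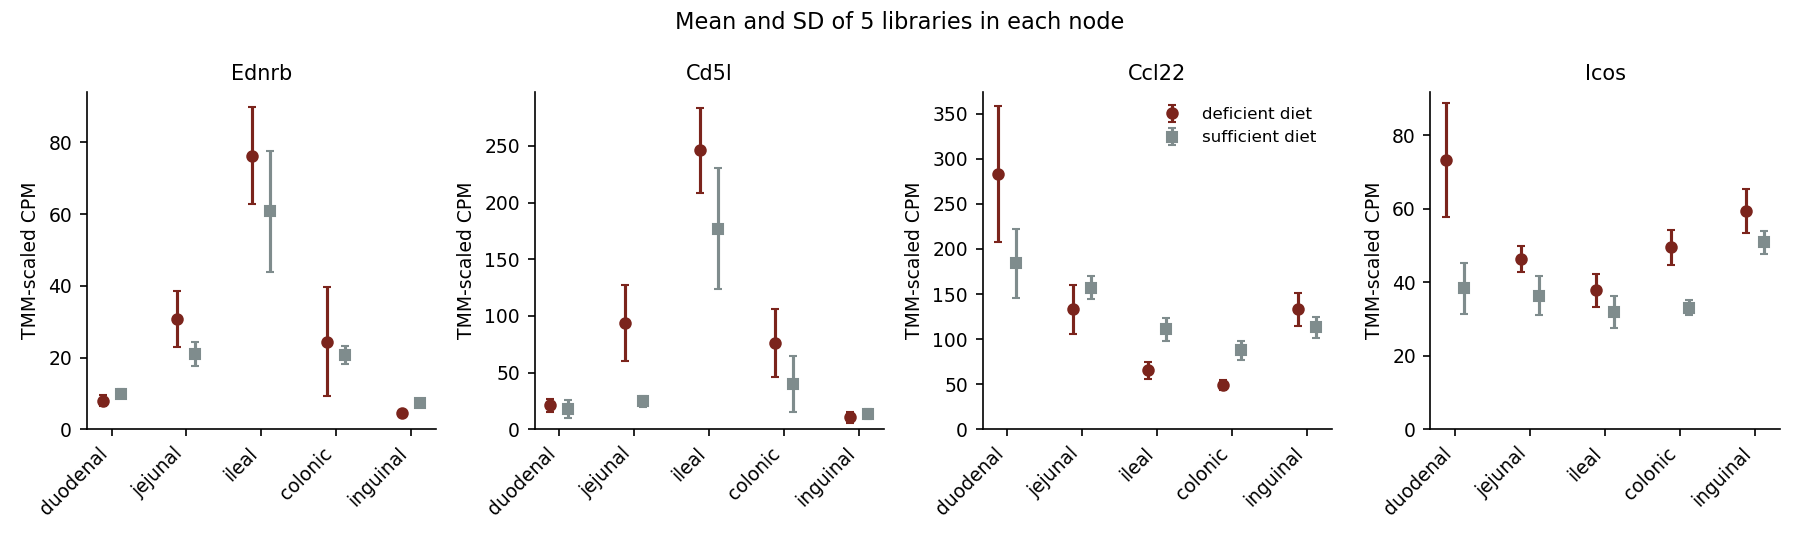
Mean ± SD (n = 5) of CPM for Ednrb, Cd5l, Ccl22 and Icos in the 5 nodes, with the deficient diet in dark red left of the sufficient diet in grey. Ednrb and Cd5l stand lowest in duodenal and inguinal nodes on the deficient diet (8.05 and 4.5 CPM for Ednrb), and Ccl22 is highest in duodenal nodes at 283 CPM.

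Of the 86 lower genes the 2 groups did not overlap for 62, and of the 29 higher genes that did not follow carry-over for 12, against 1.79% of all genes tested. The called genes were selected by p from these same libraries, so their higher share follows from the selection and adds no support. The number of genes past the threshold depended on single libraries. It was 45 in place of 147 without duodenal library 4, 77 without jejunal library 2 and 79 without jejunal library 3.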

How the data were processed

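The authors deposited 1 table of estimated counts per gene for all 50 libraries, with 56600 entries, of which 379 have no gene name and were kept under their identifier. The submitters' processing notes list the builds GRCm39 and mm10 and the programs kallisto, edgeR and limma, for which the sources used here give neither role nor version. Deficient columns bear the word 3rd, which is not explained. They were matched to that diet because the remaining 25 columns are named control.

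Estimated counts were rounded. Genes passing edgeR's filterByExpr by group (18077) were scaled with TMM and fitted in 1 model of all 50 libraries with 10 group means and a sex term (edgeR 4.0.16, limma 3.58.1, R 4.3.3), with quasi-likelihood tests of the duodenal minus jejunal contrast on each diet and of their difference. P-values were adjusted by Benjamini-Hochberg over all genes, with a threshold of 0.05. Approximate standard errors came from each fold change and its F value. Only sufficient groups hold both sexes, so they alone inform the sex term. Levels are TMM-scaled CPM. The fit was tested on simulated counts. Figures were drawn with matplotlib 3.10.9.

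The members, the gene lists and the tests were chosen with earlier results of these data known. The naming rule named the 12 largest called changes each way at 1 CPM or more outside the pancreas list, predicted (Gm or Rik) genes and V segments, up to 4 per list by adjusted p, 24 set genes and up to 6 per direction by the difference between diets. The measure of carry-over was added after the data were seen. Alternatives were DESeq2 1.42.0, limma-voom, other scalings and filters, fewer libraries, terms for pancreas share and Gm19220, a replicate block, and omission of each library in turn.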

Additional observations from a re-analysis of the deposited data

Results flagged for a closer look

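In 19 of 188 groups of 5 libraries examined (10.1%), 1 library stood apart, with a gap to its neighbour above 0.71 of the group's range. Chance gives about 1 in 20 such groups where values are independent and normally spread. Most groups here were genes named above, measured in the same libraries, and single libraries set the values of some. The share flagged can therefore not be compared with that rate.

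In deficient duodenal nodes, library 4 stood apart with 33.9% of its counts on the pancreas list, against at most 4.54% in the other 4. It was also the highest for Prss2 (22451 CPM), Dmbt1 (2206 CPM), Mt1 (257 CPM), Mt2 (130 CPM) and Msln (5.46 CPM), and the lowest for Flt4 (25.1 CPM). Library 3 was the highest for Reg2 (72.9 CPM) and Clec9a (39.4 CPM) and had the lowest share of counts from Gm19220 (1.7%). Library 2 was the highest for Foxp3 (57.8 CPM) and Paqr9 (4.51 CPM), and library 5 for Cd36 (201 CPM).

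In deficient jejunal nodes, library 2 was the highest for Siglec1 (387 CPM), Slc11a1 (82.3 CPM) and Prox1 (32.3 CPM), and library 3 for Cldn11 (26 CPM). Igkv5-39, an immunoglobulin light chain segment, reached 482 CPM in library 1 and at most 20.4 CPM in the other 4. Zfp618 reached 31.3 CPM in library 5 and at most 2.86 CPM in the other 4.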

How the results depend on the processing

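The count of 147 genes outside the pancreas list became 61 with limma-voom (23% of them higher in duodenal nodes, against 41.5%), 230 with DESeq2, 62 with the deficient diet alone and 10 with the compared libraries alone. It was 1 without libraries over 1% pancreas, 56 without those over 10%, 11 with a term for log2 pancreas share and 50 without libraries low in Gm19220. Leaving out 1 library gave 45 to 180. Under RLE scaling, both other filters, removal of the pancreas list, no sex term and a Gm19220 term it stayed within 1.5 times. On the sufficient diet 430 became 217 with the pancreas term and 153 to 494 without 1 library. Removal of libraries over 1% pancreas left library 4 (0.103% pancreas) as the only sufficient duodenal library. No count is given for that setting on the sufficient diet. No scaling moved the median of all genes by over 0.1. The cause of these changes was not tested.

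The deviations of same-numbered duodenal and jejunal libraries correlated at -0.05, 0.31, -0.18, 0.2 and 0.21 on the deficient diet (2 of 5 best with their own number). On the sufficient diet they correlated at 0.37, 0.41, 0.08, 0.24 and 0.57 (4 of 5), a hint of pairing from the data there. Same-numbered sufficient libraries also share their sex, which was not removed from the deviations, so shared sex and pairing cannot be told apart. Not every pair exceeded 0.1, so the numbers were not taken to pair the libraries. With a replicate block the counts were 183 and 634, and in the difference between diets 1 gene passed, Fabp5 (1.21, adjusted p = 0.00943). Here too an effect of sex on the node difference cannot be told apart from an effect of diet.

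Of 56 named genes past the threshold, Ccl22, Cd5l, Ednrb, Paqr9 and Unc5b lost it under only 1 of 25 alternatives. For Ccl22 this was the fit of the compared libraries alone, and for the other 4 the removal of libraries over 1% pancreas. Signs turned for Prss2 (-0.29) and Dmbt1 (-0.72) with the pancreas term. Among genes not past the threshold they turned for Madcam1 (-0.08) and Igha (0.15) without libraries over 1% pancreas, Igha (0.07) without those over 10%, Igha (0.04), Cyp26b1 (0.22) and Il1rl1 (0.02) without libraries low in Gm19220, and Il1rl1 (0.13) with the pancreas term. Without 1 library Cyp26b1 ran from -0.60 to 0.05, Igha from -0.25 to 0.08 and Il1rl1 from -0.24 to 0.08. Genes near 1 CPM rest on few reads.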
